A study of Mus musculus with 24 samples.

Results

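Day 5 of ureteral obstruction changed kidney gene expression differently in PLD4-/- and PLD4+/+ mice, and with all libraries in the fit most of the difference that passed the test came from levels before obstruction. The comparison asked, for every gene, whether the change from control kidney to obstructed kidney was the same in both genotypes. It compared 16 of the series' 24 libraries, chosen by their labels as 4 libraries in each of 4 groups. All 24 libraries entered the fit, so the day 10 libraries also shaped the spread behind each p-value. The groups were PLD4+/+ control kidney at day 0, PLD4-/- control kidney at day 0, PLD4+/+ kidney at day 5 after unilateral ureteral obstruction (UUO), and PLD4-/- kidney at day 5 after UUO. They are called WT day 0, KO day 0, WT day 5 and KO day 5 here, and their libraries are numbered 1 to 4 as labelled. Age, sex, strain and the nature of the Pld4 allele were not given in the sources used here. The labels do not say whether replicates came from separate animals, so p-values measure only the spread between these samples.

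PLD4 belongs to the phospholipase D family, spans the membrane and trims nucleic acids from the 5′ end in the endolysosome, where toll-like receptors sense DNA and RNA. Loss of such nucleases in mice is known to leave nucleic acids that engage these receptors and induce interferon-stimulated genes. UUO ties off a ureter, and the obstructed kidney then goes through tubular injury, leukocyte entry and fibrosis. An interaction measures the difference between 2 responses, and it equals the genotype difference at day 5 minus the genotype difference at day 0. A gene can therefore have a large interaction because the genotypes differed at the start, because they differed under obstruction, or both.

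Total counts ran from 9800888 to 22542866 per library, and 15080 genes passed the filter on low counts. Markers of kidney were present in all 16 libraries, with Lrp2 (proximal tubule) at 337 CPM (counts scaled to a common library size) or more and Umod (thick limb) at 2525 CPM or more. The first principal component held 64.7% of the variance and separated day 0 from day 5. In these whole-kidney samples, fewer cells of a type and less RNA per cell cannot be told apart.

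A set of 3 libraries stood apart from their groups. KO day 0 library 4 had 879 CPM of Xist, the RNA of the inactive X chromosome, against at most 0.692 CPM in the other 15 libraries. It had 0.390 CPM of the Y-linked gene Ddx3y, against 63.9 CPM or more elsewhere. It also stood apart beyond sex-linked genes. The podocyte gene Nphs1 was at 72.3 CPM, against 19.2 to 24.8 CPM in the other KO day 0 libraries. The mean log2 CPM of a mast cell list was 4.13 against 1.08 to 1.64, and that of a cytochrome P450 list 6.05 against 6.94 to 7.06. WT day 5 library 4 and KO day 5 library 1 lay with the other genotype for the nuclear-retained RNAs Malat1 and Neat1. Malat1 was at 2290, 1190, 1930 and 276 CPM in WT day 5 libraries 1 to 4, and at 1550, 253, 260 and 324 CPM in KO day 5 libraries 1 to 4. Neat1 was at 2320, 1160, 2090 and 436 CPM in WT day 5, and at 1870, 524, 423 and 368 CPM in KO day 5. So 3 WT libraries and 1 KO library were high in these RNAs at day 5, and 1 WT library and 3 KO libraries were low. These genes were picked after their values were seen.

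Pld4 itself did not mark the genotype at day 0. It was at 5.1, 5.53, 7.89 and 8.25 CPM in WT day 0, and at 12.6, 9.91, 8.68 and 6.7 CPM in KO day 0, so the groups overlapped and its counts check no label there. Wdfy1, an adaptor of toll-like receptor signalling, and Serpina1a were picked because they differed between the labelled genotypes on both days, so they are no independent check of the labels. Wdfy1 was between 104 and 137 CPM in all 8 WT libraries and between 16.9 and 58 CPM in all 8 KO libraries. Serpina1a, an antitrypsin gene with near-identical copies whose counts are therefore uncertain, was at 18.8 CPM or more in the WT libraries and at 0.583 CPM or less in the KO libraries. For both genes WT day 5 library 4 and KO day 5 library 1 had values on the side of their labelled genotype.

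**Figure D1:**
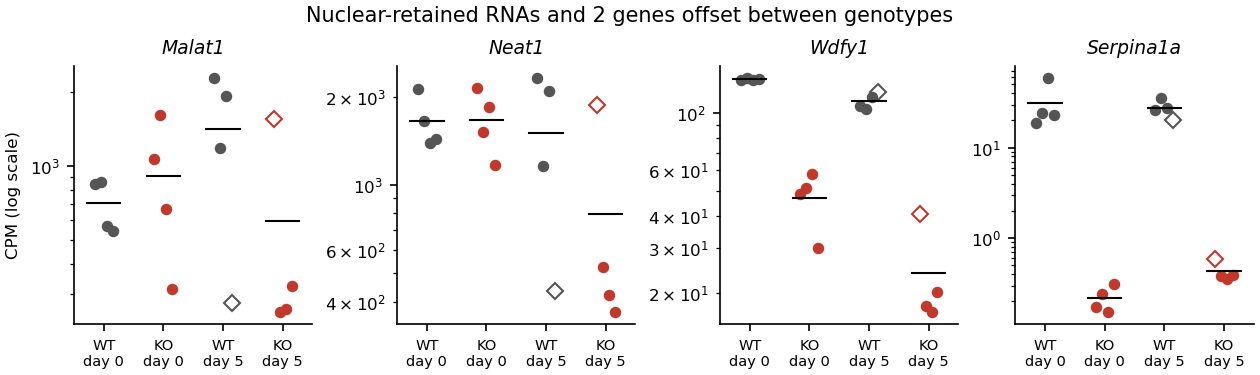
CPM on a log axis for Malat1, Neat1, Wdfy1 and Serpina1a in each of the 16 libraries, by group, with the mean as a line. Open diamonds are WT day 5 library 4 and KO day 5 library 1, which lie with the other genotype for Malat1 and Neat1 and with their own for Wdfy1 and Serpina1a.

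Interaction and its parts came from edgeR's quasi-likelihood test on all genes, with p-values adjusted by Benjamini-Hochberg and a threshold of 0.05. The day 5 response differed between genotypes for 85 genes, which is 0.564% of the genes tested. Of these, 80 had a lower response in KO (0.531% of genes tested) and 5 a higher one (0.0332%), while 2068 genes had an unadjusted p under 0.05. Responses are log2 fold changes from each genotype's own day 0 level, so a lower response need not be a smaller rise in CPM. Over all genes tested the median interaction was -0.01 (log2). The response itself was broad: 8536 genes (56.6%) changed in WT, 4673 up (31%) and 3863 down (25.6%), and 5951 genes (39.5%) changed in KO, 3381 up (22.4%) and 2570 down (17%). On deposited FPKM values (log2 of FPKM + 1) the split was 8464 up and 917 down in WT and 8217 up and 385 down in KO, with a median over all genes of 0.526 in WT against 0.0818 from counts.

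How many genes were called rested on single libraries and on the day 10 libraries in the fit. Without WT day 5 library 4 the count was 884, without KO day 5 library 1 it was 244, and without KO day 0 library 4 it was 50. All 85 genes kept their direction in each of these 3 fits. Leaving out any other single library of the 16 moved the count to between 27 and 103. The 16 libraries fitted alone gave 510 calls, which held 84 of the 85. With WT day 10 libraries 2 and 3 left out of the shared spread the count was 645.

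Of the 85 genes, 51 went up in both genotypes by estimate and less so in KO, and 29 went up in WT and down in KO. Another 3 went down in both with the smaller change in KO, and 2 went down in WT and up in KO. The WT response was itself called for 84 of the 85, 79 up and 5 down. The KO response was called for 47, of which 40 were up and 7 down.

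Each called gene was then split by how much of its interaction the day 0 difference made up. Genes with over 0.667 of the interaction from day 0 are described as carried by day 0, those with under 0.333 as carried by day 5, and the rest as carried by both. By this split 65 genes (76.5%) were carried by day 0, 14 (16.5%) by both and 6 (7.06%) by day 5. The 16 libraries fitted alone gave 416 (81.6%), 77 and 17 in the same order. The 65 had a median log2 difference between KO and WT of 1.78 at day 0 and -0.11 at day 5. The 6 had a median of 0.492 at day 0 and -1.42 at day 5. These parts share their libraries with the interaction that chose the genes, so they are a description.

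KO against WT was called for 630 genes at day 0 (4.18% of those tested, 550 or 3.65% higher and 80 or 0.531% lower in KO) and for 22 genes at day 5 (0.146%, 10 or 0.0663% higher and 12 or 0.0796% lower). On deposited FPKM (log2 of FPKM + 1) the day 5 split was 33 higher and 16 lower. Of the 85 interaction genes, 71 were called at day 0, 67 higher and 4 lower in KO, and 5 were called at day 5. None was called at both, and 9 were called at neither. The 16 libraries fitted alone gave 510 interaction genes, of which 7 were called at both days. Without WT day 5 library 4, KO against WT was called for 1935 genes at day 5, and of that fit's 884 interaction genes 543 were called at day 5 and 16 at both days. Without KO day 5 library 1 there were 477 calls at day 5, and DESeq2 gave 4 interaction genes called at both days. The KO and WT libraries did not overlap at day 0 for 80 of the 85, against 19.6% of all genes, and at day 5 for 17 of the 85, against 4.58% of all genes. The test that chose the 85 used these same libraries, so more separation among them follows from the choice and is no added support.

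**Figure D2:**
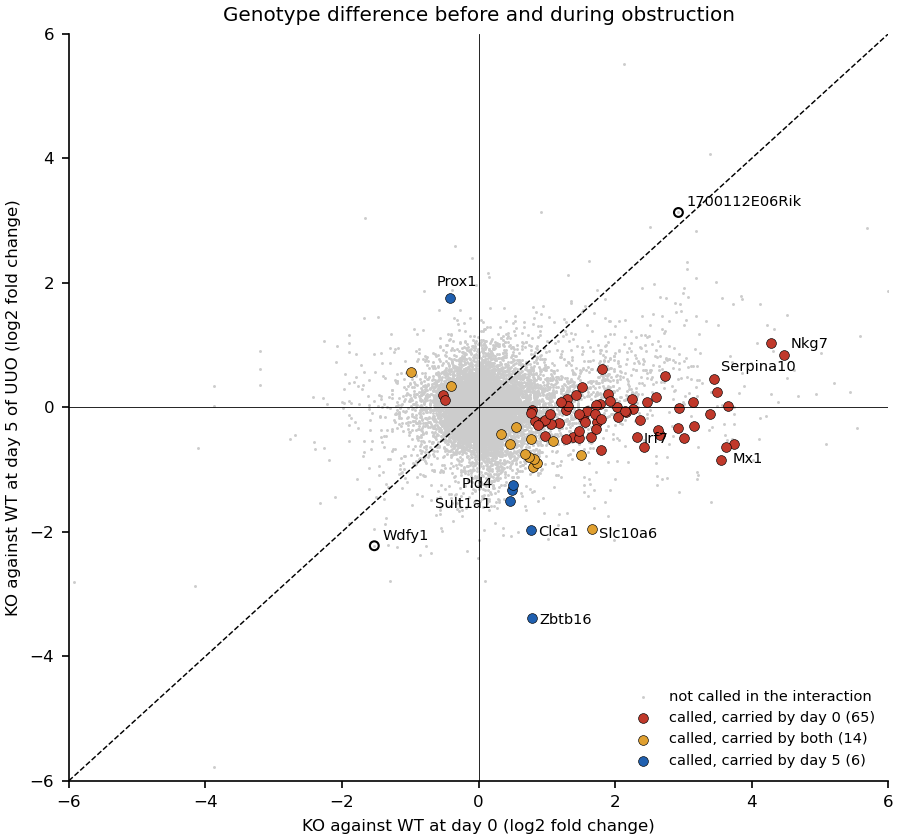
Log2 fold change of KO against WT at day 0 (x axis) and at day 5 of UUO (y axis) for the genes tested, limited to between -6 and 6 on each axis. The dashed line marks equal differences, where the interaction is 0. The 65 genes carried by day 0 lie near the x axis, the 6 carried by day 5 lie near the y axis, and the open circles are 2 genes called in the same direction on both days.

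The balance between the 2 days depended on the same libraries. Without WT day 5 library 4 the 884 genes were 211 carried by day 0, 244 by both and 429 by day 5. Without KO day 5 library 1 the 244 genes were 96, 66 and 82. With both left out, 2360 genes were called, of which 1597 (67.7%) were carried by day 5, but then every WT day 5 library was high and every KO day 5 library low in Malat1, so genotype and that difference cannot be told apart. The original genes held their class: 63 of the 65 remained carried by day 0 without WT day 5 library 4, 63 without KO day 5 library 1 and 64 without KO day 0 library 4. The 6 genes carried by day 5 all remained so in the first 2 of these fits, and 5 did without KO day 0 library 4.

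Type I interferon response genes gave the most interaction calls of the lists examined, all carried by day 0. Interferon binds a surface receptor, and the STAT and IRF proteins it activates switch on antiviral genes through promoter elements. Of 36 genes of this list tested, 8 had a lower response in KO (0.531% of all genes did) and none a higher one, and the median interaction was -1.61. At day 0, 32 of the 36 were higher in KO (3.65% of all genes were), with a median difference of 1.83, and at day 5 none was called and the median was 0.01. The median WT response was 1.91, with 33 called up (31% of all genes), and the median KO response was 0.25, with 5 called up (22.4%). The mean log2 CPM of the list was 2.49 to 3.1 in WT day 0, 4.39 to 4.96 in KO day 0, 4.56 to 4.89 in WT day 5 and 4.48 to 5.17 in KO day 5. So the KO control kidneys already lay near the level of obstructed kidneys of either genotype. The 8 genes called were 22 without WT day 5 library 4, 15 without KO day 5 library 1 and 4 without KO day 0 library 4. Over all genes the same fits called 605, 229 and 46 lower.

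Promoters of called interferon genes are shown because these genes moved together. The 250 bases upstream of the start come from RefSeq on GRCm38.p6, and the deposited counts were made on mm9. Capitals mark matches to GAAA, any 2 bases and GAAA again (TTTC, any 2 bases and TTTC on the other strand), a simplified form of the interferon-stimulated response element; overlapping matches run together. Ifit1 lies at chr19:34640639-34640888 (+), Oas1g at chr5:120887614-120887863 (-) and Irf7, which holds no match here, at chr7:141266425-141266674 (-).
Ifit1: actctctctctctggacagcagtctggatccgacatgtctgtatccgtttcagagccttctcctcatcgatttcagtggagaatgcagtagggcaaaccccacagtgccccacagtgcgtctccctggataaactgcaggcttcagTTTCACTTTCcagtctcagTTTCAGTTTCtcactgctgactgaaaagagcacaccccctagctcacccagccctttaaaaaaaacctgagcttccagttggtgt
Oas1g: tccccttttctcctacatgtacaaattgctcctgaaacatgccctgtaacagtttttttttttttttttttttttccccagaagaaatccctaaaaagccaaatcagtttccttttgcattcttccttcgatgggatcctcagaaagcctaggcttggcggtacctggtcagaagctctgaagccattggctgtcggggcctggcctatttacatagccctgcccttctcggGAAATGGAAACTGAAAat
Irf7: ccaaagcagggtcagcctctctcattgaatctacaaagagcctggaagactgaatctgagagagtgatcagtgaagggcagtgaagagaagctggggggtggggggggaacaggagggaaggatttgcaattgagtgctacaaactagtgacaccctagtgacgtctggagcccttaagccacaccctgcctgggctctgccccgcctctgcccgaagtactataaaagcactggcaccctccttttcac
Among interferon list genes with a window, 10 of 23 held a match (43.5%), and among those of them called, 2 of 5 (40.0%). Irf7, Irf9 and Oasl1 held none, and Mx1, Mx2 and Usp18 had no window. Among interaction genes the share was 7 of 57 (12.3%), among the genes tested 365 of 11253 (3.24%), and among all windows 936 of 27025 (3.46%). A match is a description of letters and not a bound site.

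Irf7, the transcription factor that amplifies type I interferon, was at 13.2, 18.3, 21.2 and 17.4 CPM in WT day 0 and at 123, 63.1, 87.9 and 87.5 CPM in KO day 0. At day 5 it was at 70.5, 61.8, 79.0 and 75.1 CPM in WT and at 82.7, 64.2, 50.4 and 52.2 CPM in KO. The genotypes did not overlap at day 0 and overlapped at day 5. Its interaction was -2.57 ± 0.52 (log2, SE; adjusted p = 0.0237), from a difference of 2.37 at day 0 and -0.20 at day 5.

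Mx1, an antiviral GTPase, was at 0.259, 0.935, 1.17 and 1.03 CPM in WT day 0 and at 14.3, 6.57, 9.98 and 11.0 CPM in KO day 0. At day 5 it was at 15.8, 7.61, 9.54 and 3.77 CPM in WT and 11.9, 5.52, 3.19 and 2.83 CPM in KO. WT rose to the level of the unobstructed KO kidneys, and at day 5 the genotypes overlapped. Its interaction was -4.26 ± 0.86 (adjusted p = 0.0237). Usp18, a brake on interferon receptor signalling, had the same shape, with 3.46 to 4.59 CPM in WT day 0, 13.2 to 20.1 in KO day 0, 9.09 to 15 in WT day 5 and 8.66 to 15.2 in KO day 5. The other 5 members called were Mx2, Oas1g, Oasl1, Ifit1 and Irf9, with interactions from -2.98 (Oas1g) to -1.15 (Irf9). Oas1g had 24 counts in all WT day 0 libraries together, so the size of its fold is uncertain.

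**Figure D3:**
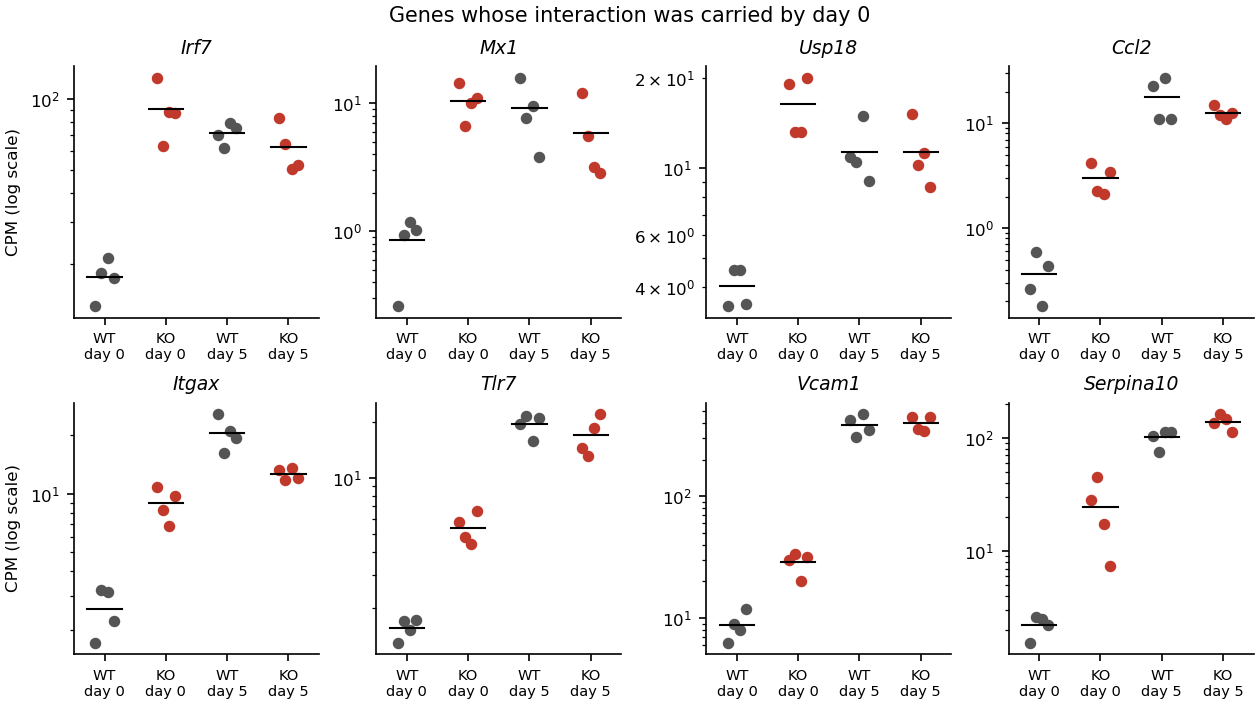
CPM on a log axis for 8 genes carried by day 0 (Irf7, Mx1, Usp18, Ccl2, Itgax, Tlr7, Vcam1 and Serpina10), by group, 1 point per library and the mean as a line. KO exceeds WT in every library at day 0 for all 8 genes, and the groups overlap at day 5 for all but Itgax.

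Leukocyte genes followed. Nkg7, a granule protein of cytotoxic lymphocytes, was at 0.0865, 0.34, 0.628 and 0.0 CPM in WT day 0 and at 7.13, 5.61, 3.88 and 7.09 CPM in KO day 0. In WT day 5 it was at 1.9, 4.48, 3.94 and 2.18 CPM and in KO day 5 at 7.17, 5.69, 4.37 and 5.09 CPM. KO day 0 therefore lay at the level of KO day 5, and WT climbed toward it. Its interaction was -3.62 ± 0.81 (adjusted p = 0.0406). Of 18 NK and cytotoxic genes tested, Nkg7 and Eomes, the transcription factor of cytotoxic lymphocytes, were called in the interaction and 10 were higher in KO at day 0. Of all genes tested, 0.564% were called in the interaction and 3.65% were higher in KO at day 0. Of 23 T cell genes, Cd8b1 alone was called (-3.25, adjusted p = 0.0472) and 15 were higher at day 0. Cd8b1 had 8 counts and Nkg7 12 in all WT day 0 libraries together, so the size of these folds is uncertain. Without KO day 0 library 4 neither list held a called gene, and 9 and 7 were higher at day 0 (333 of all 15207 genes in that fit).

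The mean log2 CPM of the T cell list was -1.4 to -0.72 in WT day 0, 0.72 to 1.38 in KO day 0, 0.52 to 1.49 in WT day 5 and 1.01 to 1.87 in KO day 5. That of the macrophage list was 1.18 to 1.95, 2.67 to 3.26, 4.81 to 4.95 and 4.86 to 5.13 in the same order. The part of cell number in these differences was not tested.

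Dendritic cell genes gave 4 calls of 19 tested, against 0.564% of all genes: Ccr7, Itgax, Siglech and Cd86. Itgax, which encodes CD11c, was at 1.73, 3.23, 3.14 and 2.23 CPM in WT day 0 and at 10.8, 8.24, 6.86 and 9.74 CPM in KO day 0. At day 5 it was at 25.6, 16.1, 20.9 and 19.2 CPM in WT and at 13.2, 11.7, 13.6 and 12.1 CPM in KO. The groups did not overlap on either day, KO being the higher at day 0 and the lower at day 5, where the difference of -0.69 had an adjusted p of 0.282. Its interaction was -2.48 ± 0.39 (adjusted p = 0.00815). With stricter bounds for the single-day classes Itgax was carried by both. Ccr7, the receptor that guides dendritic cells to lymph nodes, had an interaction of -3.10 ± 0.46 (adjusted p = 0.00471). It had 21 counts in all WT day 0 libraries together, so the size of this fold is uncertain. Siglech, a plasmacytoid dendritic cell lectin, had 3 counts in all WT day 0 libraries together, and no fold is given for it.

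Chemokine and receptor genes included Ccl2, which draws monocytes to tissue. Ccl2 was at 0.259, 0.595, 0.179 and 0.43 CPM in WT day 0, at 4.21, 2.27, 2.13 and 3.43 in KO day 0, at 22.5, 10.9, 27.3 and 10.9 in WT day 5, and at 14.9, 12.1, 11.0 and 12.5 in KO day 5. Its interaction was -3.51 ± 0.63 (adjusted p = 0.0117), although it rose in both genotypes, by 5.57 in WT and 2.06 in KO. Ccl2 had 17 counts in all WT day 0 libraries together, so the size of these folds is uncertain. Cx3cr1, a monocyte and macrophage receptor, had a difference of 1.80 at day 0 and 0.61 at day 5, with an interaction of -1.19 ± 0.26 (adjusted p = 0.0396). The macrophage list held 1 call among 26 genes and the chemokine list held 1 among 26 (0.564% of all genes tested were called). At an unadjusted p under 0.05 these were 14 and 8, where 2068 of all 15080 genes tested reached it. DESeq2 called 7 and 4 (272 of all 15080), and without WT day 5 library 4 edgeR called 7 and 4 (884 of all 15197). Among 21 genes of endosomal nucleic acid sensing, Irf7 and Tlr7, the receptor for single-stranded RNA, were called. Tlr7 had an interaction of -1.98 ± 0.43 (adjusted p = 0.0361).

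Interferon-gamma and antigen presentation lists had large day 0 differences and no interaction call. Of 11 MHC class II genes, 10 were higher in KO at day 0 (median 2.08), none was called in the interaction (median -1.51) and the day 5 median was 0.61. Of 24 interferon-gamma targets, 14 were higher at day 0 (median 2.14), the median interaction was -1.06 and the day 5 median was 1.10. Of 20 MHC class I genes, 11 were higher at day 0 and the median interaction was -0.91. Of all genes tested, 3.65% were higher in KO at day 0 and 0.564% were called in the interaction. At an unadjusted p under 0.05 the interaction counts were 9 of the MHC class II genes, 4 of the interferon-gamma targets and 8 of the MHC class I genes. DESeq2 called 5, 0 and 0. Over all 15080 genes tested, 2068 reached that p and DESeq2 called 272. With WT day 5 library 4 left out, edgeR called 4 MHC class II genes, all lower (605 of all 15197 genes were).

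**Figure D4:**
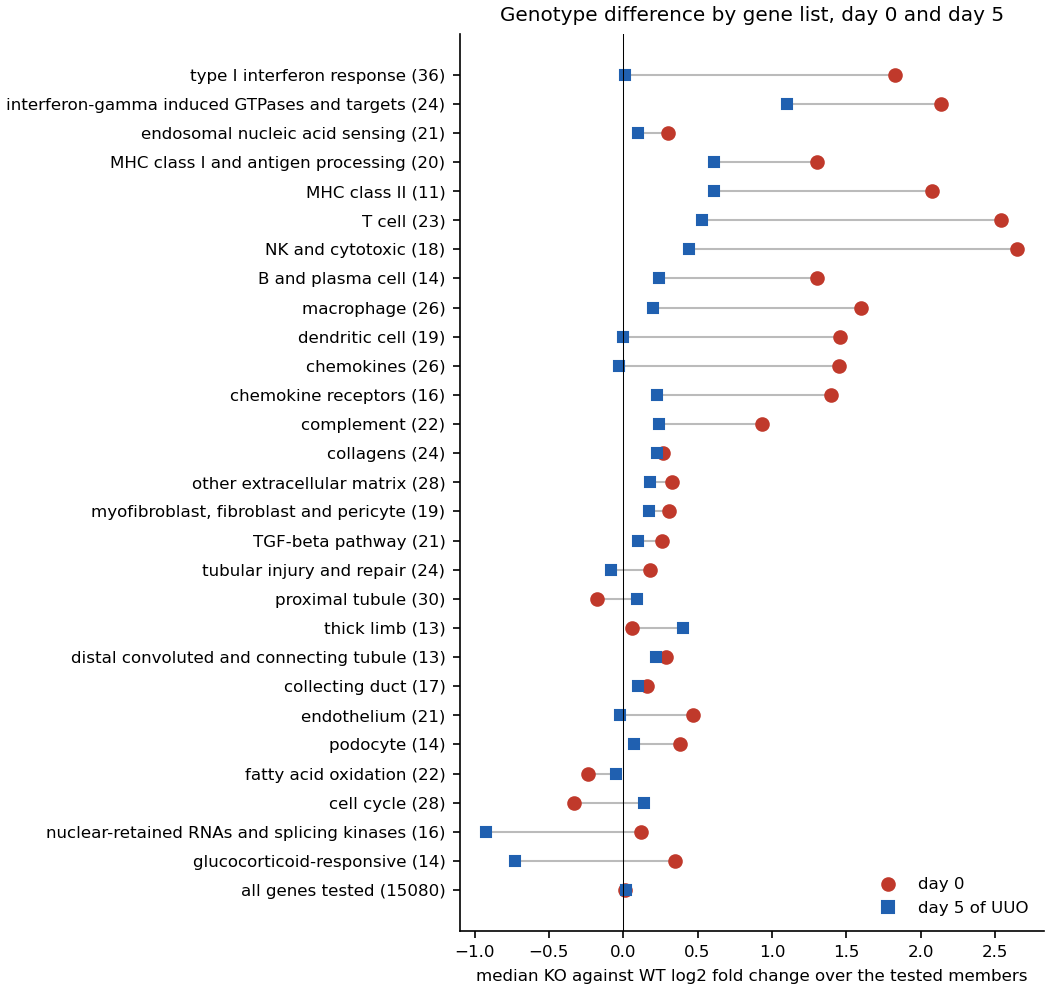
Median log2 fold change of KO against WT over the tested members of each list (number tested in brackets), at day 0 (circles) and day 5 (squares). Interferon and leukocyte lists lie to the right at day 0 and nearer to 0 at day 5, while the nuclear-retained RNA and glucocorticoid lists lie below 0 at day 5.

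Further genes carried by day 0 had varied roles. Vcam1, an adhesion molecule expressed by injured tubules and endothelium, was at 6.31 to 11.9 CPM in WT day 0, 20.2 to 33.9 in KO day 0, 305 to 473 in WT day 5 and 344 to 450 in KO day 5. Its interaction was -1.67 ± 0.34 (adjusted p = 0.0237), and it was the one call among 24 tubular injury genes. Of all genes tested, 0.564% were called. Serpina10, the protein Z-dependent protease inhibitor, was at 1.56, 2.64, 2.51 and 2.23 CPM in WT day 0 and 28.3, 45.2, 17.4 and 7.41 CPM in KO day 0, against 74.8 to 114 in WT day 5 and 113 to 163 in KO day 5. Its interaction was -2.99 ± 0.49 (adjusted p = 0.00889). Mean CPM went from 2.2 to 101 in WT and from 24.6 to 139 in KO, so the response in KO was lower in fold and not in CPM. The 2 genes carried by day 0 with a higher response in KO were Pigk, a subunit of the complex that attaches GPI anchors (0.62 ± 0.11), and Tor2a, a torsin ATPase (0.72 ± 0.13). Pigk was at 104 to 109 CPM in WT day 0, 69.8 to 78.2 in KO day 0, 54.5 to 67.5 in WT day 5 and 63.4 to 69.4 in KO day 5. The lowest adjusted p in the interaction belonged to Ptpru, a receptor tyrosine phosphatase (-1.86 ± 0.23, adjusted p = 7.87e-04), named after its values were seen.

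Genes carried by day 5 were few and of mixed roles. With stricter bounds for the single-day classes 3 remained, Zbtb16, Sult1a1 and Prox1, while Map3k6, Clca1 and Pld4 were then carried by both. Zbtb16, a zinc finger transcription factor known to be induced by glucocorticoids, was at 13.2, 25.3, 20 and 27.9 CPM in WT day 0 and at 22.2, 51.0, 50.6 and 25.5 CPM in KO day 0, which overlapped. At day 5 it was at 54.5, 42.6, 38.2 and 61.2 CPM in WT and at 2.92, 3.81, 2.77 and 9.28 CPM in KO, which did not. It rose in WT by 1.18 and fell in KO by 2.98 (log2), giving the most negative interaction of the 6 genes, -4.17 ± 0.73 (adjusted p = 0.0115). The day 5 difference was -3.39 (adjusted p = 0.00545).

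Map3k6, a stress kinase, and Sult1a1, a sulfotransferase of phenols and drugs, also rose in WT, by 1.77 and 1.23. In KO Sult1a1 fell by 0.75, while the Map3k6 response was -0.04 (adjusted p = 0.891). Map3k6 was at 23.2, 26.8, 27.3 and 20.3 CPM in WT day 5 and at 10.8, 7.95, 7.14 and 13.0 CPM in KO day 5. Sult1a1 was at 38.3, 56.3, 59.7 and 30.7 CPM in WT day 5 and at 19.9, 15, 13.8 and 16.2 CPM in KO day 5. Neither overlapped at day 5. Their interactions were -1.81 ± 0.29 and -1.97 ± 0.34, each with an adjusted p of 0.00889. At day 0 KO was above WT by 0.48 and 0.46, with adjusted p of 0.248 and 0.366.

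Clca1, a secreted metalloprotease that modifies chloride channels, rose in both genotypes. It was at 155, 181, 229 and 50.2 CPM in WT day 5 and at 55.5, 35.8, 31.2 and 34.8 CPM in KO day 5, after 4.15 to 6.55 CPM in WT day 0 and 5.07 to 12.5 CPM in KO day 0. WT day 5 library 4 lay below KO day 5 library 1, so the groups overlapped. The rise was 5.00 in WT and 2.27 in KO, an interaction of -2.73 ± 0.49 (adjusted p = 0.0117).

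Pld4 itself was at 50.9, 47.6, 48.2 and 46.5 CPM in WT day 5 and at 32.6, 18.9, 13.4 and 16.4 CPM in KO day 5. The groups did not overlap, and KO library 1 was the highest of its group. Pld4 rose by 2.85 in WT and 1.10 in KO, with an interaction of -1.75 ± 0.39 (adjusted p = 0.0439), while the day 5 difference of -1.25 had an adjusted p of 0.0724. Counts assigned to Pld4 were thus present in the KO libraries. Which exons or strand they came from is not given in the sources used here.

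Prox1, the lineage factor of lymphatic endothelium that is also expressed in the renal medulla, was the one gene carried by day 5 with a higher response in KO. It was at 7.26, 9.95, 7.98 and 6.19 CPM in WT day 0 and at 6.36, 6.45, 6.63 and 4.13 CPM in KO day 0. At day 5 it was at 1.43, 0.944, 0.484 and 2.0 CPM in WT and at 2.97, 4.25, 4.19 and 5.26 CPM in KO. The groups overlapped at day 0 and not at day 5. It fell by 2.66 in WT, and its interaction was 2.164 ± 0.47 (adjusted p = 0.0361). The direction held in all 27 alternatives that gave a value, and the call was lost in 14 of them, with adjusted p up to 0.0882.

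**Figure D5:**
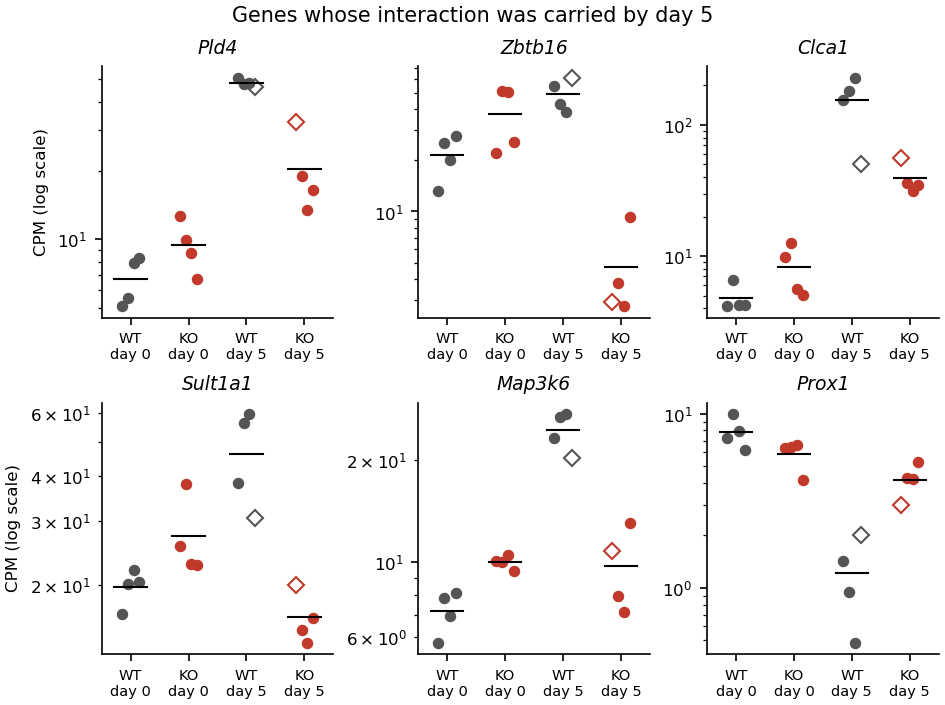
CPM on a log axis for the 6 genes carried by day 5, by group, 1 point per library and the mean as a line, with open diamonds for WT day 5 library 4 and KO day 5 library 1. The KO and WT libraries at day 5 are apart for all but Clca1.

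Zbtb16 was the one call among 14 glucocorticoid-responsive genes, where 0.564% of all genes tested were called. The median interaction of the 14 was -1.14 and their median difference -0.73 at day 5 and 0.35 at day 0. An unadjusted p under 0.05 was reached by 8 of the 14 (2068 of all 15080 genes tested), and DESeq2 called 2 (272 of all 15080). Leaving out WT day 5 library 4 gave 2 calls in the interaction and 5 in KO against WT at day 5, all lower, against 1 at day 5 with all libraries. Over all genes 1029 of 15197 were lower at day 5 in that fit, against 12 of 15080 with all libraries. Fkbp5, another member, was at 190 to 339 CPM in WT day 5 and 52.4 to 134 CPM in KO day 5, with an interaction of -1.43 and an adjusted p of 0.224. Among 16 nuclear-retained RNAs and splicing kinases none was called in the interaction or at day 5, while the median difference was 0.12 at day 0 and -0.92 at day 5. At an unadjusted p under 0.05 there were 9 in the interaction, and DESeq2 called 0. Without WT day 5 library 4, 8 of these 16 were called in the interaction, all carried by day 5 and all lower. Over all genes that fit called 605 of 15197 lower. That library stood out by low Malat1 and Neat1, RNAs of this kind. The 8 calls therefore follow in part from the choice of library. The part of that library difference in the genes carried by day 5 was tested only by leaving the libraries out.

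Among the 14 genes carried by both days, Gpsm1, a G protein regulator, was at 3.69 to 6.04 CPM in WT day 0, 7.46 to 12.9 in KO day 0, 19.3 to 41.1 in WT day 5 and 14.7 to 21.9 in KO day 5. Its difference changed sign, from 0.79 to -0.95, with an interaction of -1.74 ± 0.31 (adjusted p = 0.0117). Slc10a6, a transporter of sulfated steroids, moved from 1.66 to -1.95 (interaction -3.60 ± 0.71, adjusted p = 0.0209). Prkar2b, a regulatory subunit of protein kinase A, went the other way, from -0.99 to 0.57 (interaction 1.56 ± 0.27, adjusted p = 0.00889). It fell in WT by 0.63 and rose in KO by 0.93.

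The collagen, other matrix, TGF-beta pathway, proximal tubule, fatty acid oxidation and respiratory chain lists held no interaction call. Of 24 collagen genes, 20 rose in WT and 19 in KO, and the median interaction was -0.13. Of all genes tested, 31% were called up in WT and 22.4% in KO, and 0.564% were called in the interaction. Of 28 other matrix genes, 26 rose in WT and 27 in KO, with a median of -0.07. For 30 proximal tubule genes the median was 0.23, with 22 falling in WT and 11 in KO (25.6% and 17% of all genes tested). The 21 TGF-beta pathway genes had a median of -0.27, the 22 fatty acid oxidation genes 0.21 and the 22 respiratory chain genes 0.23. An unadjusted p under 0.05 was reached by 2 collagens, 4 other matrix genes and 5 TGF-beta pathway genes, and by 0 genes of the 3 tubule and metabolic lists. DESeq2 called 2 other matrix genes and 0 in the other 5 lists. Over all 15080 genes tested, 2068 reached that p and DESeq2 called 272. Without WT day 5 library 4, 1 TGF-beta pathway gene was called up and 2 down, 1 other matrix gene up and 1 down, and none of the other 4 lists held a call. Of all 15197 genes in that fit, 279 were called up and 605 down.

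A set of 8 genes was called in the same direction at day 0 and day 5 without an interaction call, which does not show that their differences were equal on the 2 days. Pydc3 differed by 5.68 at day 0 and 2.89 at day 5, with an interaction of -2.79 (adjusted p = 0.0707). Wdfy1 differed by -1.53 and -2.22, with an interaction of -0.70 (adjusted p = 0.319), which was called without KO day 5 library 1 (-1.12, adjusted p = 0.0186). Igj, the joining chain of secreted antibodies, differed by 3.18 and 2.84, and 1700112E06Rik by 2.93 and 3.13. Igj was at 1.7 to 4.93 CPM in WT day 0, 16.1 to 60.3 in KO day 0, 3.86 to 9.5 in WT day 5 and 21.7 to 86.3 in KO day 5. A further 551 genes were called at day 0 only, without an interaction call.

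At day 10 of UUO, KO against WT was called for 2 of the 85 interaction genes, against 1.41% of the genes tested. Pld4 was lower in KO by -1.13 ± 0.27 (log2, SE; adjusted p = 0.0331), and Cd8b1 was higher by 1.80 ± 0.43 (adjusted p = 0.0331). The other 5 genes carried by day 5 had day 10 differences of -1.91 for Zbtb16, -0.29 for Clca1, -0.73 for Sult1a1, -0.73 for Map3k6 and 1.01 for Prox1, with adjusted p-values from 0.0704 to 0.681. Zbtb16 varied widely in WT day 10, with a mean of 28.3 CPM and an SD of 23.9. Leaving out WT day 10 libraries 2 and 3 raised the interaction calls from 85 to 645. The day 10 differences without these 2 libraries were not tested.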

How the data were processed

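Kidney RNA of 24 libraries (TruSeq stranded mRNA, per the labels' protocols) was deposited as raw counts per gene symbol and as FPKM values that the authors normalized. Per the submitters' processing notes, bcl2fastq 2.16, STAR 2.5, Cufflinks and the genome mm9 were used; the counting tool, annotation and strand setting are not given in the sources used here. Groups came from the labels, and all 24 libraries entered 1 fit in R 4.3.3 with edgeR 4.0.16: TMM scaling, filterByExpr over the 6 groups (minimum count 10, total 15), robust quasi-likelihood fit with 18 residual degrees of freedom, Benjamini-Hochberg over 15080 of 23955 genes. CPM uses TMM-scaled totals, and SE is the estimate divided by the root of F.

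Members and lists were chosen with earlier results of these data known. Genes were named by size of interaction within direction, class and pattern (mean log2 CPM of at least 1), by lowest p within lists, and for constant offsets by smallest interaction. Pydc3, Fkbp5 and Ptpru fall outside these rules and were named with their values known. DESeq2 1.42.0 and limma 3.58.1 (log2 of FPKM plus 1 or 0.1) were alternatives. The fits were tested on simulated data.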

Additional observations from a re-analysis of the deposited data

Results flagged for a closer look

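The interaction term differed between genotypes for 85 genes, as described above. Among 136 sets of 4 libraries (genes shown per library and total counts), 12 had a library far from the other 3, where chance marks about 1 in 20. KO day 0 library 4 stood apart for Xist at 879 CPM, for Ddx3y at 0.390 CPM and for Prox1 at 4.13 CPM. KO day 5 library 1 stood apart for Malat1 at 1547 CPM, Neat1 at 1874 CPM, Gpsm1 at 21.9 CPM and Wdfy1 at 40.8 CPM. KO day 5 library 4 was the highest of its group for Zbtb16 at 9.28 CPM. WT day 5 library 4 was the highest of its group for Cx3cr1 at 49.5 CPM. Among WT day 0 libraries, library 2 was the highest for Clca1 at 6.55 CPM, library 3 for Serpina1a at 59.0 CPM, and library 4 had the lowest Siglech, at 0 CPM.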

How the results depend on the processing

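All 85 interaction genes kept their direction in every alternative that gave them a value, but calls were lost. Leaving out 1 library kept 27 (WT day 0 library 1) to 85 of the 85 calls, and log2(FPKM + 1) kept 6 of 80. Of the 37 named genes called, 14 kept the call without WT day 0 library 1, 16 without KO day 5 library 2 and 4 on log2(FPKM + 1). Cd8b1 lost it in 18 of 29 alternatives, Pld4 in 17 and Tlr7 in 13, while Zbtb16, Sult1a1 and Map3k6 kept it in all 29. Interaction calls were 272 with DESeq2, 6 with limma on log2(FPKM + 1) with or without the filter, 510 with the 16 libraries alone, 645 without WT day 10 libraries 2 and 3, and 27 to 884 with 1 library left out; 15 of these 16 fits moved the count over 1.5-fold, KO day 0 library 3 (103) being the exception. Alternatives chosen after seeing the data gave 548 without KO day 0 library 4 and WT day 5 library 4, 429 with the 16 libraries less KO day 0 library 4, and 2360 without WT day 5 library 4 and KO day 5 library 1. KO against WT at day 0 gave 975, 361, 318 (unfiltered FPKM), 1167 and 1274 in the same order, 296 to 702 with 1 library left out, and 397 in the first added fit. At day 5 it gave 87, 49, 55, 70 and 116, 41 with limma on log2(FPKM + 0.1), 9 to 1935 with 1 library left out, and 1852, 74 and 3210 in the added fits. KO response calls were 9293 on unfiltered FPKM; with 1 library left out both responses stayed within 1.5-fold. With stricter bounds for the single-day classes, 22 genes were carried by both and 3 by day 5; the 16 libraries gave 416 by day 0, 77 by both and 17 by day 5. The cause of these moves was not tested. With the replicate block 95 genes were called, 74 of them among the 85. Same-numbered libraries correlated over 0.1 in 0 of 4 pairs between WT and KO at day 0 and 2 of 4 at day 5. Those 2 were number 1 (0.265) and number 4 (0.591). Between the days it was 2 of 4 pairs in WT and 0 of 4 in KO. This check does not settle whether the numbers pair libraries at day 5. Low counts limit lymphocyte genes, Ccl2, Ccr7 and Oas1g in WT day 0.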
